A study of Mus musculus with 9 samples.

Results

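The lysosome digests what a macrophage takes up, and 35 genes that build it are described here on 9 mouse arrays. They comprise 6 genes of the lysosomal membrane (Lamp1, Lamp2, Scarb2, Npc1, Mcoln1 and Ostm1), 2 of a soluble lipid carrier and an enzyme activator (Npc2 and Psap) and 13 of hydrolases (Lipa, Gaa, Gla, Glb1, Gusb, Hexa, Man2b1, Naglu, Neu1, Ppt1, Tpp1, Asah1 and Smpd1). The other 14 encode parts of the proton pump, namely the accessory protein gene Atp6ap1, 5 genes of the V0 sector (Atp6v0a1, Atp6v0b, Atp6v0c, Atp6v0d1 and Atp6v0e) and 8 of the V1 sector (Atp6v1a, Atp6v1b2, Atp6v1c1, Atp6v1d, Atp6v1e1, Atp6v1f, Atp6v1g1 and Atp6v1h). The genes were chosen by symbol from the gene names of the probes, with the cathepsins, Atp6v0d2 and Tcirg1 left out, and all 35 were among the 17306 named genes tested. On the probe that stands for it, each of the 35 was well above background on all 9 arrays.

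The cells were peritoneal macrophages of male mice, sorted as CD45+F4/80+ cells, and each group had 3 arrays. Ctrl cells were cultured alone for 24 h in regular medium, and T cells spent 24 h in the lower chamber of a Transwell together with the mouse colon carcinoma line CT-26. A Transwell holds an upper and a lower chamber with a porous filter between them. M cells were the migratory macrophages taken from the upper chamber of such a co-culture, and the length of their co-culture was not given in the sources used here. No strain, age or genotype was given, and no label stated whether a group's arrays came from separate cultures or animals. The cell type label attached the word migratory to the T samples, while titles, descriptions and protocols attached it to M, and the titles were followed here. CT-26 is a mouse line, so RNA of its cells would be read by the same probes.

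Lysosomal hydrolases work in an acid lumen. The vacuolar proton pump keeps it acid: its V1 sector on the cytosolic side splits ATP, and its V0 sector in the membrane moves protons. Glycosylated membrane proteins such as the LAMPs line the organelle, and channels and transporters release calcium, chloride and digestion products. Factors of the MiT/TFE family (Tfeb, Tfe3, Mitf and Tfec) bind E-box motifs near the starts of many of these genes and can raise them together. Several pump subunits exist as alternative isoforms made by separate genes, some of them abundant in osteoclasts, which acidify bone.

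The motif of these factors is shown first, because the 35 genes are often treated as one such set. RefSeq windows of assembly GRCm38.p6 that end shortly after the transcription start were at hand for 29 of the 35 genes (32 windows in all), and Npc1, Asah1, Atp6v1b2, Atp6v1c1, Atp6v1g1 and Atp6v1h are named only. Both strands were searched for the full CLEAR motif, named for this gene network, for the shorter TCACGTGA that lies inside it, and for the E-box CACGTG that lies inside both. The full CLEAR motif was in 0 of the 29 genes, against 0.37% of the 27025 genes with a window. TCACGTGA was in 5 of the 29 (17.2%, against 1.12% of all genes), namely Mcoln1, Gla, Atp6v0d1, Atp6v0e and Atp6v1a. CACGTG was in 10 (34.5%, against 8.09%), which added Lamp1, Naglu, Gaa, Glb1 and Atp6v0b. By role it was in 4 of 12 hydrolase genes, 4 of 10 pump genes and 2 of 7 membrane, carrier and activator genes. The stretches below show a single E-box (Naglu), 4 in a row (Lamp1), both motifs together (Mcoln1), a pair of the longer motif (Gla) and a single one in a pump gene (Atp6v1a), 5′ to 3′ on the gene's strand. Capitals mark TCACGTGA or CACGTG, and all other bases are in lower case.
Mcoln1, chr8:3500428-3500500, + strand: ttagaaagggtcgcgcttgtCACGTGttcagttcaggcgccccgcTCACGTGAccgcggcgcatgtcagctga
Lamp1, chr8:13159080-13159171, + strand: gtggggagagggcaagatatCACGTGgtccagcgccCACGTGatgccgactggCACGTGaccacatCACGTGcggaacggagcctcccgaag
Naglu, chr11:101070001-101070046, + strand: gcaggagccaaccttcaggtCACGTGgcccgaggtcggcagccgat
Gla, chrX:134601173-134601253, - strand: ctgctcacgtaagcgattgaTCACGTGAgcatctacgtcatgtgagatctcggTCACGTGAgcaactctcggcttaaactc
Atp6v1a, chr16:44139364-44139411, - strand: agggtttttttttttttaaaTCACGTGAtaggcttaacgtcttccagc
Counted from the start site, the TCACGTGA of Mcoln1 began at -46 and that of Atp6v1a at -132, the pair in Gla at -228 and -195, and the 4 E-boxes of Lamp1 between -61 and -15. A match of letters is a description and not a bound site.

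Signals were expressed as log2 of the processed intensity minus the array's 75th percentile, so a level of 0 equals the signal that 3 in 4 probes do not exceed, and a difference of 1 is a doubling. The 75th percentile itself lay between 2147 and 3714 intensity units. All Ctrl and M arrays were on slide 1 and scan 1, and all T arrays on slide 2 and scan 2, so in every comparison with T the group and the slide cannot be told apart, while M against Ctrl lies within 1 slide. Replicate spots varied more on M1 and M3 (coefficients of variation of 15.0% and 19.8%) than on the other 7 arrays (4.39% to 8.72%). A deposited table of processed values held for M1 the scanner values of M2, for M2 those of M1, and for T2 values of no scanner file. Because M1 and M2 belong to the same group, the exchange does not touch a group mean. All 7 macrophage markers were above background on every array. Of the genes for the sort antigens, Ptprc was 0.02 and Adgre1 0.10 above Ctrl in T, neither past the threshold, and both rose in M, by 0.80 and 2.86 (adjusted p 0.0207 and 1.14e-05). Of all 7 macrophage markers, 2 rose in T (Lyz2 0.58 and Mertk 2.74) and 3 in M (Ptprc, Adgre1 and Lyz2, the last by 1.53), and Mertk was lower in M than in T (-2.26). Csf1r (-0.10 in T and -0.19 in M), Itgam (-0.68 and -0.67) and Fcgr1 (-0.09 and 0.47) did not pass in these comparisons. In bulk RNA, fewer cells of a type and less RNA per cell cannot be told apart.

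Over the whole set the levels of the 35 genes lay slightly above Ctrl in both co-culture groups. The median of the 35 against the Ctrl mean was -0.13, -0.07 and 0.19 on Ctrl1, Ctrl2 and Ctrl3, then 0.24, 0.25 and 0.27 on T1, T2 and T3, and 0.26, 0.24 and 0.33 on M1, M2 and M3. Every T and M array was thus above every Ctrl array, and Ctrl3 was the closest to them. Over all 17306 genes the same medians ran from -0.05 to 0.11 in Ctrl, from -0.17 to -0.06 in T and from -0.14 to 0.03 in M. The median difference of the 35 genes was 0.22 in T against Ctrl (all genes -0.13), 0.30 in M against Ctrl (all genes -0.07) and -0.01 in M against T (all genes 0.12). The first 2 comparisons share the Ctrl arrays and are given side by side for that reason.

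**Figure D1:**
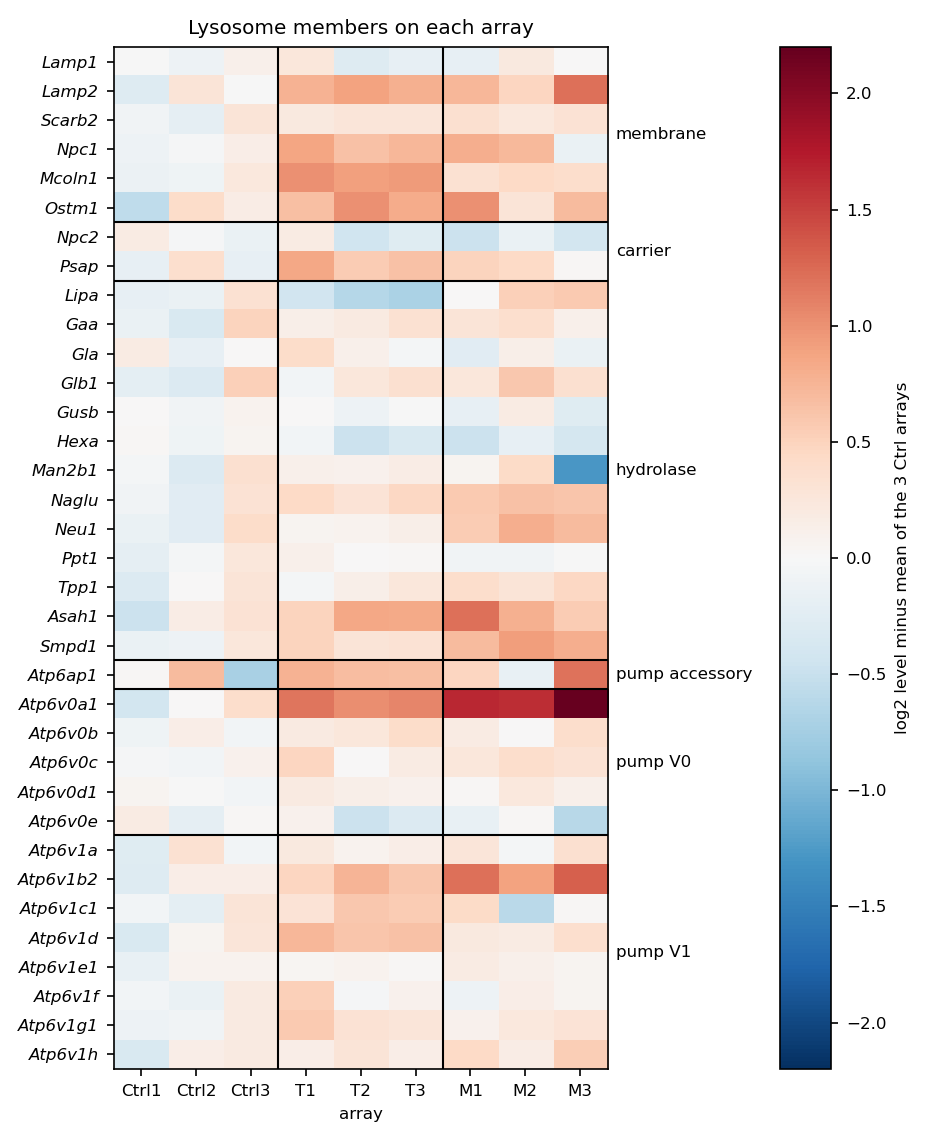
Heat map of the log2 level of each of the 35 lysosome genes on each array, minus the mean of the 3 Ctrl arrays (rows are genes by role, columns are arrays, red is above and blue below the Ctrl mean). Atp6v0a1, Atp6v1b2 and Lamp2 are red on all T and M arrays, Lipa is blue on the T arrays, and Man2b1 is blue on M3 (1.83, against 3.16 and 3.53 on M1 and M2).

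In T against Ctrl, 9 of the 35 genes rose and 1 fell at an adjusted p of 0.05. Of all genes tested, 17.7% rose and 26.5% fell, and the share called either way was 28.6% of the 35 against 44.2% of all genes. The risers were Mcoln1, Lamp2, Ostm1, Npc1, Psap, Asah1, Atp6v0a1, Atp6v1b2 and Atp6v1d, and Lipa fell. Only Atp6v0a1 rose by over 1 on the log2 scale and 0 fell by as much, against 9.53% and 16.4% of all genes. The arrays of T and Ctrl did not overlap for 15 of the 35 genes, against 53.2% of all genes. The number of risers was sensitive to single arrays, as only Atp6v0a1 and Mcoln1 passed without Ctrl1, 3 genes passed without T2 and 3 without T3, and 14 passed without Ctrl3. Which share of risers was larger turned with them. It was 25.7% of the 35 against 17.7% of all genes with every array, 5.71% against 13.3% without Ctrl1, 8.57% against 12.9% without T2 and 8.57% against 12.8% without T3. The scaling between arrays mattered too, since it moved the median of all genes from -0.13 to 0.01 under quantile normalization and to 0.30 under median scaling. With these scalings 14 and 20 of the 35 rose, and 1 and 0 fell. The share of all calls that were rises went from 40.1% to 53.0% and 67.1%. Counted against the median of all genes, 31 of the 35 lay above it, and 33 and 31 did so under the other 2 scalings.

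In M against Ctrl, 7 of the 35 genes rose and 0 fell, against 12.8% and 11.2% of all genes, and 9 of the 35, all higher, had an unadjusted p under 0.05. The risers were Atp6v0a1, Atp6v1b2, Asah1, Smpd1, Neu1, Naglu and Lamp2. Of these, Atp6v0a1 and Atp6v1b2 rose by over 1 on the log2 scale and 0 fell by as much, against 7.07% and 6.56% of all genes. The share called either way was 20%, against 23.9%. The arrays did not overlap for 11 of the 35, against 36.4% of all genes. Quantile normalization and median scaling gave 8 rises each, while the share of all calls that were rises went from 53.3% to 66.6% and 75.4%. In 4 settings 3 rises were left, those of Atp6v0a1, Atp6v1b2 and Smpd1. These were the fit of Ctrl and M alone, which is the comparison within slide 1, the fits without Ctrl1 and without M1, and the deposited value table. There were 4 rises without Ctrl2, M2, M3, T2 or T3, and 12 without Ctrl3. With every array 20% of the 35 rose, against 12.8% of all genes. With 3 rises the share was 8.57%, against 8.38% of all genes in the fit of Ctrl and M alone. Beside the same 8.57% stood 7.96% without Ctrl1, 8.58% without M1 and 7.69% with the value table. With 4 rises it was 11.4%, against 8.2%, 11.7%, 7.86%, 10.5% and 10.6% in the order named. Without Ctrl3 it was 34.3%, against 22.6%. Without M1 and M3 together, Atp6v0a1 alone passed.

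In M against T, 3 of the 35 genes were higher (Atp6v0a1, Lipa and Neu1) and 1 was lower (Mcoln1), against 15.0% and 10.9% of all genes. The share called either way was 11.4%, against 25.9%, and 0 differed by over 1 on the log2 scale in either direction, against 7.12% higher and 6.22% lower among all genes. The arrays did not overlap for 11 of the 35, against 48.8% of all genes. Of these calls Lipa alone passed without M1, M3, T1, T2 or T3 in turn. Median scaling also left Lipa alone, and the share of all calls that were higher was 58.0%, against 54.9% and 44.9% under quantile normalization and median scaling. Without Ctrl3 there were 5 higher genes, 14.3% of the 35 against 20.5% of all genes.

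**Figure D2:**
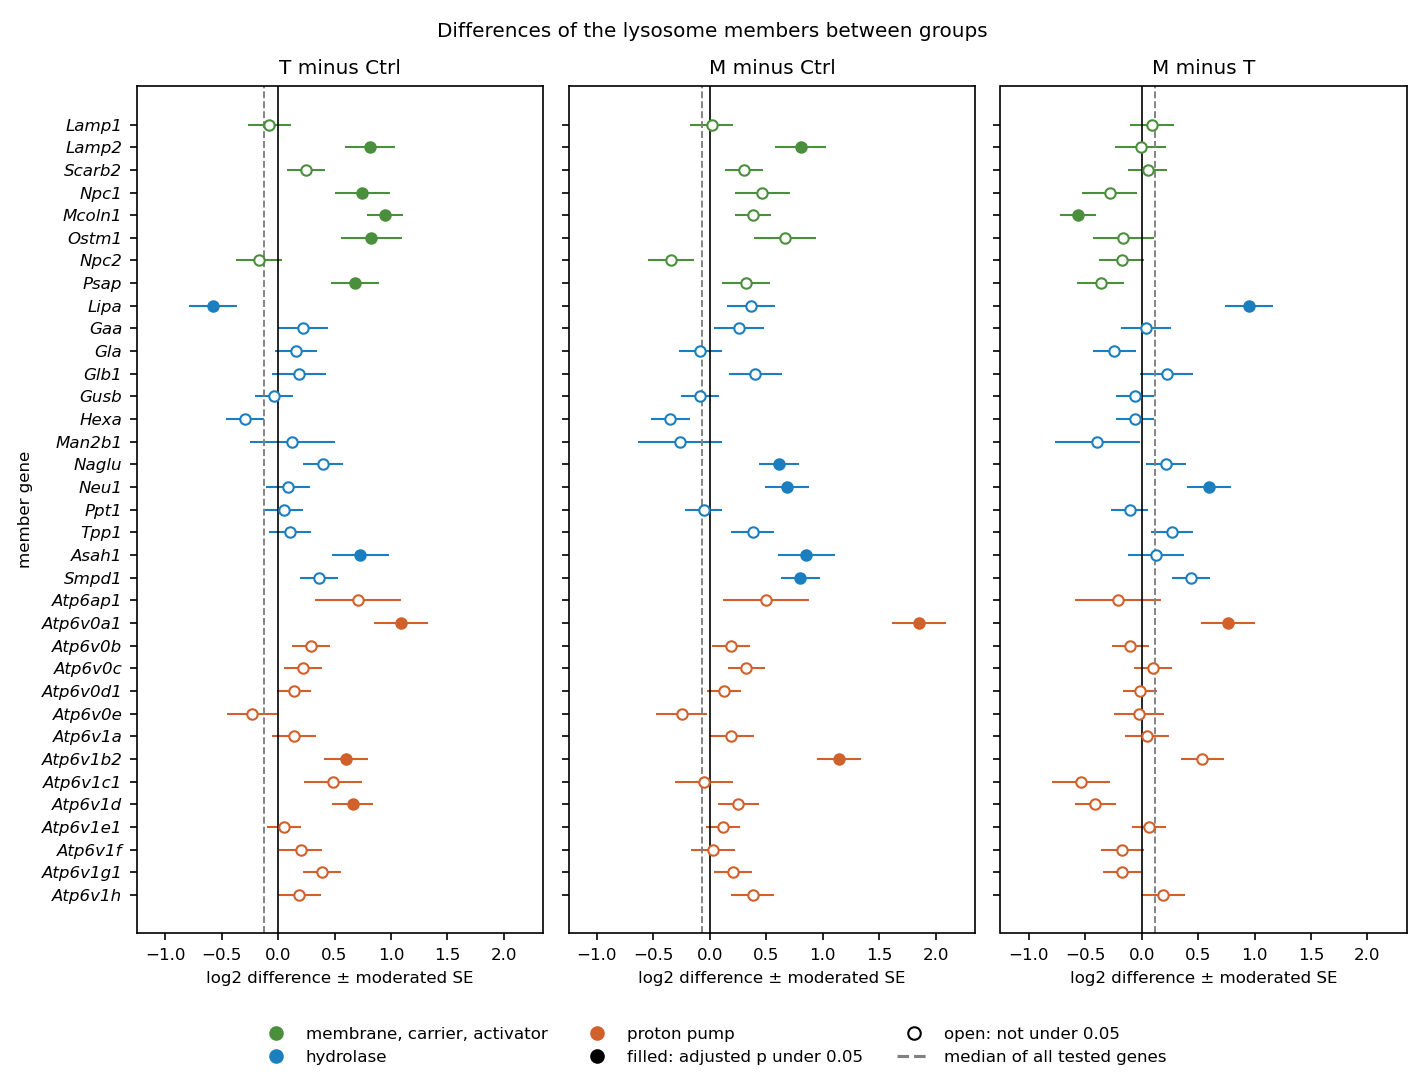
Log2 difference of each of the 35 genes in the 3 comparisons (points), with the moderated SE as bars, coloured by role. Filled points had an adjusted p under 0.05, and the dashed line is the median of all tested genes (-0.13, -0.07 and 0.12). Of the 8 membrane, carrier and activator genes 5 are filled in T against Ctrl. Of the 13 hydrolases 4 are filled in M against Ctrl and 2 in each of the other comparisons. The shares of all genes called either way were 44.2% in T against Ctrl, 23.9% in M against Ctrl and 25.9% in M against T.

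Among membrane genes the calcium channel gene Mcoln1 differed most between T and Ctrl. Its product, mucolipin-1, lets calcium out of the lysosome. Mcoln1 (probe on mm9 chromosome 8 from 3515110 to 3515169) had levels of 1.62, 1.66 and 1.98 on the Ctrl arrays, 2.76, 2.66 and 2.69 on the T arrays and 2.09, 2.19 and 2.14 on the M arrays. All T arrays were above all M arrays, which were above all Ctrl arrays. It rose 1.93-fold in T (log2 difference 0.95 ± 0.16, SE, n = 3 per group, adjusted p 0.00149) and kept this call in all 21 other settings. Its difference in M was 0.39 ± 0.16 (adjusted p 0.0987), and it was lower in M than in T by 0.56 (log2 difference -0.56 ± 0.16, adjusted p 0.0267), a call lost in 11 of 20 other settings. A dimmer second Mcoln1 probe differed by 0.09 ± 0.19 between T and Ctrl and did not pass, so the probes disagree.

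Lamp2 encodes a major LAMP glycoprotein of the lysosomal membrane. Its levels (chromosome X from 35777505 to 35777564) were 2.03, 2.59 and 2.3 in Ctrl, 3.08, 3.19 and 3.08 in T, and 3.03, 2.78 and 3.52 in M. Both co-culture groups lay above Ctrl without overlap, by 0.81 ± 0.22 in T (adjusted p 0.0148) and 0.80 ± 0.22 in M (adjusted p 0.0292), and they differed from each other by -0.01. The T call was lost in 2 of 21 other settings and the M call in 8 of 20, including the fit of Ctrl and M alone. A second Lamp2 probe differed by 0.47 in T and -0.13 in M, and passed in neither. Lamp1, its close relative, had Ctrl levels of 4.78 to 5.0, T levels of 4.59 to 5.12 and M levels of 4.70 to 5.10, which overlap, and it differed by -0.08 ± 0.19 in T and 0.02 ± 0.19 in M.

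Ostm1 encodes the partner that the chloride and proton exchanger ClC-7 needs in the lysosomal membrane. Its levels (chromosome 10 from 42422061 to 42422120) were -1.06, -0.10 and -0.34 in Ctrl, 0.16, 0.50 and 0.32 in T, and 0.51, -0.21 and 0.20 in M. The T arrays lay above all Ctrl arrays, whereas M2 fell between Ctrl2 and Ctrl3. The difference was 0.83 ± 0.27 in T (adjusted p 0.0318) and 0.67 ± 0.27 in M (adjusted p 0.0946). Ctrl1 was far below the other Ctrl arrays. The T difference did not pass without Ctrl1, T2 or T3 in turn, with the mean of all probes of a gene, or with the deposited value table. The second Ostm1 probe, above background on 7 of 9 arrays, differed by -0.18 in T.

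Npc1 exports cholesterol from the lysosome, and it rose by 0.74 ± 0.24 in T (adjusted p 0.0315), a call lost without Ctrl1, Ctrl2, T1, T2 or T3 in turn. Its levels were 0.46, 0.54 and 0.72 in Ctrl and 1.43, 1.21 and 1.30 in T, and in M they were 1.38, 1.29 and 0.43. M1 and M2 were thus near the T arrays and M3 below Ctrl1, and with all 3 M arrays the difference of 0.46 ± 0.24 did not pass. Without M3, Npc1 passed in M against Ctrl. Scarb2, which carries glucocerebrosidase to the lysosome, differed by 0.25 in T and 0.30 in M and passed in neither.

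Psap encodes prosaposin, the precursor of the saposins that present lipids to hydrolases. It rose by 0.68 ± 0.21 in T (adjusted p 0.0251), from 2.69, 3.24 and 2.69 in Ctrl to 3.72, 3.43 and 3.52, and in M its levels of 3.36, 3.32 and 2.90 overlapped Ctrl. The T call was lost in 6 of 21 other settings, among them the fits without Ctrl1, T1, T2 or T3. Npc2, the soluble cholesterol carrier that hands its cargo to Npc1, differed by -0.17 ± 0.20 in T and -0.35 ± 0.20 in M and passed in neither. Of the 8 membrane, carrier and activator genes, 5 rose in T and 1 in M, against 17.7% and 12.8% of all genes, with medians of 0.71 and 0.35. The count in T depended on single arrays. Mcoln1 alone of these genes passed without Ctrl1 or without T2, and Lamp2 and Mcoln1 passed without T3.

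Of the 13 hydrolases 4 rose in M (12.8% of all genes did), and 1 rose and 1 fell in T (17.7% and 26.5%), with median differences of 0.37 in M and 0.13 in T. These counts depended on the setting. In M 1 rose in the fit of Ctrl and M alone, with the value table, and without Ctrl1, Ctrl2, M1, M2, M3, T2 or T3. In these fits 7.69% to 11.7% of all genes rose. Without Ctrl3 7 hydrolases rose, against 22.6% of all genes. In T 3 rose under quantile normalization and 4 under median scaling, against 22.3% and 28.5% of all genes. Under median scaling 4 rose in M as well, against 17.4% of all genes. Asah1, which encodes acid ceramidase, passed in both groups. Its levels (chromosome 8 from 42426681 to 42426740) were 0.57, 1.21 and 1.36 in Ctrl, 1.54, 1.91 and 1.88 in T, and 2.27, 1.83 and 1.60 in M. Ctrl3 and M3 or T1 were close, and no array of T or M fell below a Ctrl array. The differences were 0.73 ± 0.25 in T (adjusted p 0.0390) and 0.85 ± 0.25 in M (adjusted p 0.0363), lost in 7 of 21 and 10 of 20 other settings. A second Asah1 probe gave 0.63 ± 0.22 and 0.69 ± 0.22 and passed in both.

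Smpd1 encodes acid sphingomyelinase, which makes the ceramide that acid ceramidase degrades. Its levels (chromosome 7 from 112706752 to 112706811) were 2.16, 2.19 and 2.56 in Ctrl, 2.79, 2.58 and 2.62 in T, and 2.99, 3.21 and 3.1 in M. The 3 groups did not overlap, with T between Ctrl and M. It rose 1.74-fold in M (0.80 ± 0.17, adjusted p 0.00962) and lost this call only without M1 and M3 together, among 20 other settings. Its T difference of 0.36 ± 0.17 did not pass (adjusted p 0.109).

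Neu1 encodes the lysosomal sialidase. Its levels (chromosome 17 from 35072105 to 35072164) were 3.29, 3.19 and 3.84 in Ctrl, 3.50, 3.52 and 3.57 in T, and 4.0, 4.24 and 4.14 in M. The T arrays lay within the Ctrl range and the M arrays above both groups. It rose by 0.69 ± 0.19 in M against Ctrl (adjusted p 0.0315) and was higher than in T by 0.60 ± 0.19 (adjusted p 0.0462), each lost in 10 of 20 other settings. Naglu, which removes N-acetylglucosamine from heparan sulfate, rose by 0.61 ± 0.18 in M (adjusted p 0.0351, lost in 10 of 20) and differed by 0.40 ± 0.18 in T (adjusted p 0.0967). Its levels were 2.40 to 2.97 in Ctrl, 2.94 to 3.1 in T and 3.22 to 3.29 in M, so M stood apart from Ctrl while T did not.

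Lipa was the only one of the 35 to fall in T. It encodes lysosomal acid lipase, which frees cholesterol and fatty acids from lipoprotein lipids. Its levels (chromosome 19 from 34567717 to 34567776) were 3.82, 3.87 and 4.34 in Ctrl, 3.59, 3.39 and 3.32 in T, and 4.03, 4.53 and 4.58 in M. The T arrays lay below all others, and M overlapped Ctrl. The fall in T of -0.58 ± 0.21 was at the threshold (adjusted p 0.0488) and was lost in 15 of 21 other settings, among them a block for the replicate number over all 9 arrays. The difference of M from T was 1.93-fold (0.95 ± 0.21, adjusted p 0.00940), kept in all 20 other settings, and that of M from Ctrl was 0.37 ± 0.21 (adjusted p 0.215).

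The other 8 hydrolases passed in no comparison. They were Gaa (acid alpha-glucosidase), Gla (alpha-galactosidase A), Glb1 (beta-galactosidase), Gusb (beta-glucuronidase), Hexa (the hexosaminidase alpha chain), Man2b1 (alpha-mannosidase), Ppt1 (palmitoyl-protein thioesterase) and Tpp1 (tripeptidyl peptidase). Their differences ran from -0.29 (Hexa) to 0.22 (Gaa) in T and from -0.35 (Hexa) to 0.40 (Glb1) in M. The M array values of Man2b1 were uneven, with M3 at 1.83 and M1 and M2 at 3.16 and 3.53. A second Gusb probe rose by 0.88 ± 0.21 in T (adjusted p 0.00760), whereas the brighter one that stands for the gene differed by -0.03 ± 0.17. The Gaa probes also disagreed, as a dimmer one was higher in M than in T by 0.58 ± 0.16 (adjusted p 0.0240) against 0.04 ± 0.22 for the brightest.

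**Figure D3:**
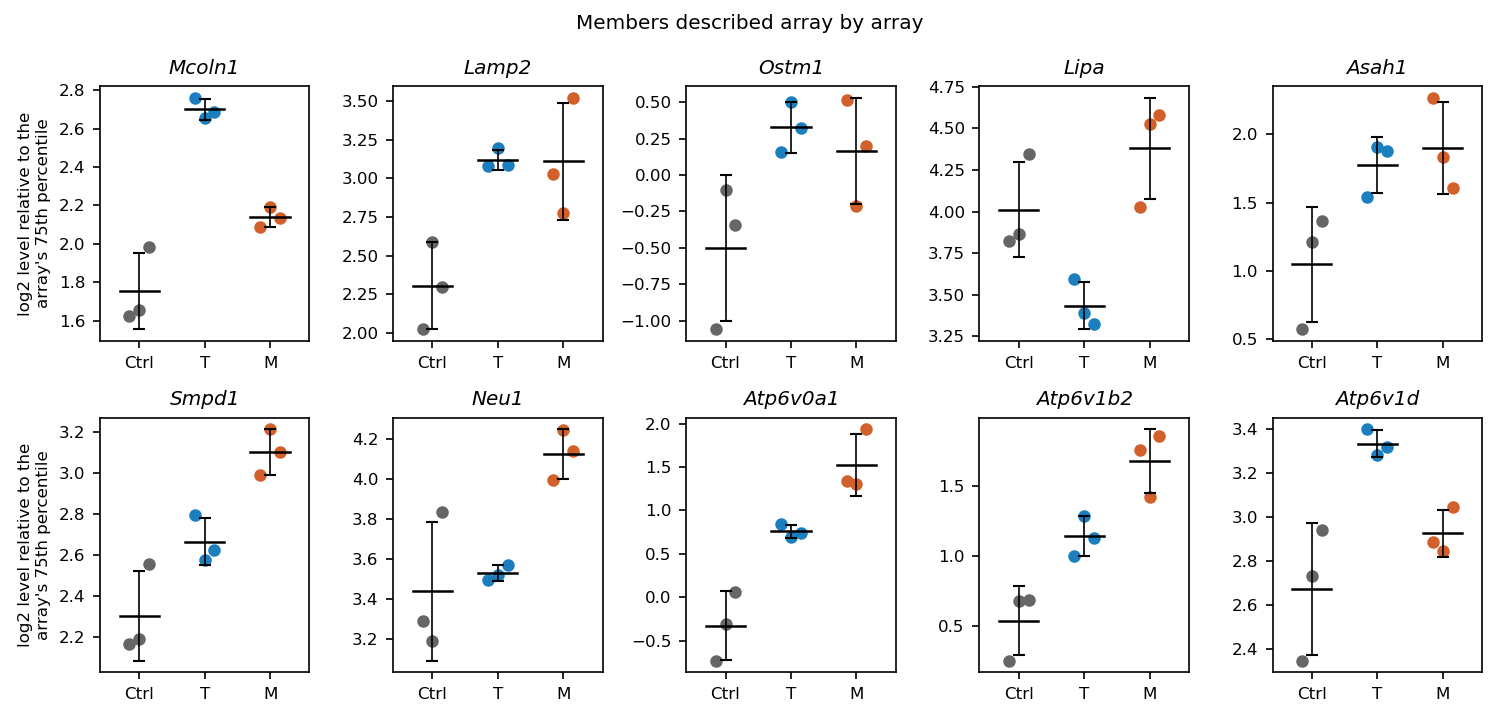
Log2 level relative to the array's 75th percentile in Ctrl, T and M for 10 of the 35 genes (points are the 3 arrays of a group, horizontal lines the group mean, bars the SD). Mcoln1 and Atp6v1d are highest in T, Smpd1, Neu1, Atp6v0a1 and Atp6v1b2 in M, and Lipa is lowest in T (3.32 to 3.59).

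In the membrane sector of the proton pump Atp6v0a1 stood apart. It encodes the a1 isoform of the large subunit through which protons pass. Its levels (chromosome 11 from 100924969 to 100925028) were -0.73, -0.31 and 0.06 in Ctrl, 0.84, 0.69 and 0.74 in T, and 1.34, 1.30 and 1.94 in M. The 3 groups did not overlap and followed the order Ctrl, T, M. It rose 2.12-fold in T (1.09 ± 0.24, adjusted p 0.00564) and 3.61-fold in M (1.85 ± 0.24, adjusted p 0.000462), and both calls were kept in every other setting run (21 and 20). The step from T to M of 0.77 ± 0.24 (adjusted p 0.0403) was lost in 11 of 20. A second Atp6v0a1 probe was above background on 2 of 9 arrays and gave no test.

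The other 4 genes of the V0 sector passed in no comparison. Atp6v0c, the proteolipid that forms the turning ring, differed by 0.22 in T and 0.32 in M, and its partner Atp6v0b by 0.29 and 0.19. Atp6v0d1, the d subunit that links ring and stalk, differed by 0.14 ± 0.15 and 0.13 ± 0.15, so an interval of 2 SE on either side ran from -0.17 to 0.42 in M. Atp6v0e, a small membrane subunit, differed by -0.23 and -0.25. The accessory protein gene Atp6ap1 had Ctrl levels from 1.74 to 3.15 and passed in neither group (0.71 ± 0.38 in T), while its second probe rose by 0.95 ± 0.18 in T (adjusted p 0.00296).

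In the cytosolic sector the B subunit gene Atp6v1b2 passed in both groups. It carries regulatory nucleotide sites beside the catalytic A subunit. Its levels (chromosome 8 from 71636799 to 71636858) were 0.25, 0.67 and 0.68 in Ctrl, 1.0, 1.29 and 1.13 in T, and 1.76, 1.42 and 1.86 in M. As for Atp6v0a1, the groups did not overlap and ran in the order Ctrl, T, M. The rise was 0.60 ± 0.19 in T (adjusted p 0.0289) and 2.21-fold in M (1.14 ± 0.19, adjusted p 0.00263), and M against T was 0.54 ± 0.19 (adjusted p 0.0658). Of the other settings run, the T call was lost in 4 of 21, and the M call only without M1 and M3 together.

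Atp6v1d encodes the D subunit of the central stalk. Its levels (chromosome 12 from 79943993 to 79944052) were 2.34, 2.73 and 2.94 in Ctrl, 3.40, 3.28 and 3.32 in T, and 2.88, 2.84 and 3.05 in M. T stood above both other groups, and M overlapped Ctrl. It rose by 0.66 ± 0.18 in T (adjusted p 0.0154, lost in 2 of 21 other settings) and differed by 0.25 ± 0.18 in M. The other 6 genes of this sector, Atp6v1a (the catalytic A subunit), Atp6v1c1, Atp6v1e1, Atp6v1f, Atp6v1g1 and Atp6v1h (stalk and regulatory subunits), passed in no comparison. Their differences ran from 0.05 (Atp6v1e1) to 0.49 (Atp6v1c1) in T and from -0.05 (Atp6v1c1) to 0.38 (Atp6v1h) in M. A second Atp6v1a probe differed by 0.67 ± 0.25 in T (adjusted p 0.0513).

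Pump and hydrolases were set side by side, as the acid and the enzymes that need it. In T, 3 of 14 pump genes and 1 of 13 hydrolases rose, against 17.7% of all genes, and 0 and 1 fell, against 26.5%, with medians of 0.26 and 0.13. In M, 2 of 14 and 4 of 13 rose, against 12.8% of all genes, with medians of 0.20 and 0.37. The pump genes called made up 21.4% in T and 14.3% in M, near the shares of all genes that rose. These counts moved with the setting. In T 6 pump genes and 3 hydrolases rose under quantile normalization, against 22.3% of all genes. The counts were 10 and 4 under median scaling (28.5%), 5 and 6 with limma's array weights (28.9%), and 1 and 0 without Ctrl1 (13.3%). In M they were 3 and 4 (16.2%), 2 and 4 (17.4%), 2 and 8 (24.6%), and 2 and 1 (7.96%) in these settings. The pump median minus the hydrolase median, computed on each array against the Ctrl means, was 0.04, 0.18 and -0.19 in Ctrl, 0.26, 0.16 and 0.06 in T, and -0.03, -0.28 and -0.02 in M. The T arrays overlapped Ctrl and so did the M arrays, while every T array was above every M array. From the fitted differences the same quantity was 0.13 in T, -0.17 in M and -0.14 in M against T, and the largest SD within a group was 0.19. The sign in T depended on the weight of the arrays, since limma's array weights turned it to -0.12. The sign in M turned when 1 array was left out, with values from -0.36 to 0.020, the latter without Ctrl2. In M against T array weights turned it as well, to 0.022, and leaving out 1 array gave values from -0.23 to -0.017, the latter without T1.

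The E-box holders can be set beside these differences. Of the 10 genes with CACGTG, 1 rose in T (Mcoln1) and 1 in M (Naglu), with medians of 0.17 and 0.19. Of the 19 genes whose window lacked it, 5 rose and 1 fell in T and 4 rose in M, with medians of 0.20 and 0.32. Of all genes, 17.7% rose and 26.5% fell in T, and 12.8% rose in M. Lamp1 with its 4 E-boxes differed by -0.08 in T and 0.02 in M, and Gla with its pair of TCACGTGA by 0.16 and -0.08. These are counts beside each other, with no test between them.

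Several alternative pump isoforms that are not among the 35 genes passed where Atp6v0d1, Atp6v0e and Atp6v1e1 did not. Atp6v0d2, which replaces Atp6v0d1 in osteoclasts and some other cells, was well above background on all 3 M arrays and on no Ctrl or T array. It was at least 168-fold higher in M than in Ctrl and at least 170-fold higher than in T. These bounds set the M mean of 0.90 against the lowest signal that counts as above background on the dim arrays, and the measured dim means were -7.20 and -7.54. The Atp6v0d2 probe entered the tests only through the M arrays. Its calls, counted below, thus rest on readings not above background in Ctrl and T. The call against T was lost in 1 of 19 other settings, the deposited value table. The a subunits followed separate courses. Atp6v0a2 rose by 1.37 ± 0.19 in T (adjusted p 0.000564) and by 0.80 ± 0.19 in M (adjusted p 0.0180). The T call was kept in all 21 other settings, and the M call was lost in 6 of 20, among them the fit of Ctrl and M alone. Tcirg1, the a3 isoform, differed by -0.05 in T and 0.52 in M (adjusted p 0.061) and was higher in M than in T by 0.56 ± 0.18 (adjusted p 0.0435, lost in 11 of 20 other settings). Its array levels were 3.96, 3.59 and 4.12 in Ctrl, 3.95, 3.70 and 3.88 in T, and 4.31, 4.51 and 4.41 in M, where M stood above both groups. Atp6v0e2 fell in T (-0.60 ± 0.20) and M (-0.71 ± 0.20), and Atp6v1e2 fell in both as well (-1.18 ± 0.23 and -0.74 ± 0.23). The calls of Atp6v0e2 were lost in 7 of 21 other settings in T and 10 of 20 in M, and that of Atp6v1e2 in 15 of 20 in M and in 0 of 21 in T.

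**Figure D4:**
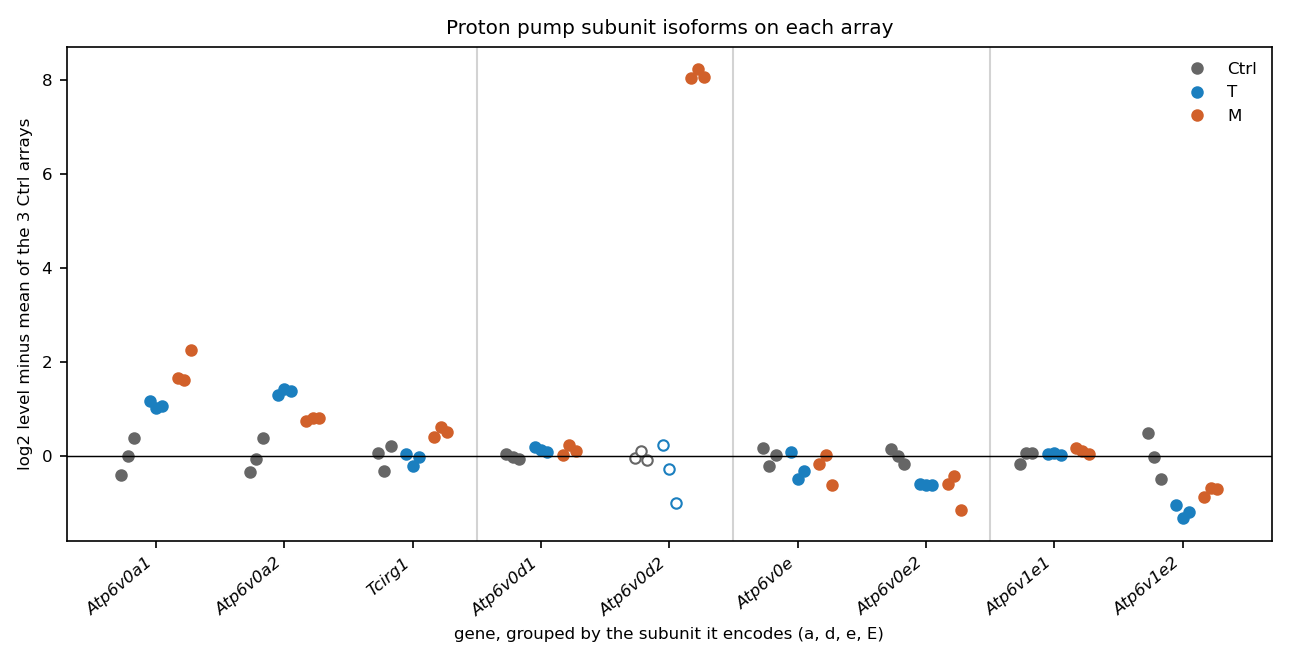
Log2 level of pump subunit isoforms on each array minus the mean of the 3 Ctrl arrays of the same gene, grouped by the subunit they encode. Open points belong to groups in which the probe was not above background on all 3 arrays, which is the case for Atp6v0d2 in Ctrl and T. Atp6v0d2 lies about 8 above its Ctrl signal on the M arrays, while Atp6v0d1 stays near 0 in all groups.

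In 3 further lists of pump, hydrolase and membrane genes, 51 of 62 calls were lost in at least 1 other setting. Of all genes, 17.7% rose and 26.5% fell in T, and 12.8% rose and 11.2% fell in M. Against T, 15.0% of all genes were higher in M and 10.9% lower. Of 17 other V-ATPase genes, 14 were tested. In T 2 rose and 3 fell, in M 2 rose and 2 fell, and in M against T 3 were higher. Besides the isoforms above, Dmxl2, whose product helps assemble the pump, rose by 0.69 ± 0.22 in T. Atp6ap2, the prorenin receptor and a second pump accessory protein, was higher in M than in T by 0.69 ± 0.19. The third gene that fell in T was Atp6v1b1 (-1.3 ± 0.36), named after its values were seen, whose Ctrl and T arrays overlapped.

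Among 30 other hydrolases and activators 4 rose and 2 fell in T, against 17.7% and 26.5% of all genes. In M 5 rose and 0 fell, against 12.8% and 11.2% of all genes, and Smpdl3a, a relative of Smpd1, led with 2.23 ± 0.21. In T the 4 risers were the sulfatases Arsa (0.80 ± 0.24) and Arsg (0.73 ± 0.21), the ganglioside activator Gm2a (0.75 ± 0.18) and the amidase Aga (0.74 ± 0.16). With the mean of all tested probes of a gene, Gm2a differed by 0.16 and did not pass. In M the hyaluronidase Hyal2 (1.02 ± 0.21), Arsg (0.79 ± 0.21) and the carboxypeptidase Scpep1 (0.71 ± 0.21) followed. Against T, 5 were higher in M and 3 lower, beside 15.0% and 10.9% of all genes. Smpdl3a (2.04 ± 0.21) and the peptidase Dpp7 (1.29 ± 0.22) led the higher ones, and Siae (-0.95 ± 0.25) and Arsa (-0.88 ± 0.24) were among the lower. The medians of this list were 0.19 in T and 0.27 in M, close to those of the 35 genes.

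The 34 other membrane and transport genes held larger differences. In T 5 rose and 4 fell, against 17.7% and 26.5% of all genes. Lmbrd1, a lysosomal cobalamin exporter, rose by 2.06 ± 0.27 and the transporter Abcb9 by 1.23 ± 0.17. The 2 relatives of Mcoln1 went the other way, as Mcoln3 fell (-1.95 ± 0.26, adjusted p 0.000380) and Mcoln2 fell (-1.41 ± 0.30, adjusted p 0.00467). In M 8 rose and 2 fell, against 12.8% and 11.2% of all genes. Laptm4b (4.42 ± 0.24, adjusted p 9.03e-07), a multispanning membrane protein, and Slc11a1 (1.56 ± 0.23), the phagosomal metal transporter NRAMP1, led the rises. Clcn7, which encodes the partner of Ostm1, rose by 1.10 ± 0.17 in M, and Gnptg, part of the enzyme that tags hydrolases with mannose 6-phosphate, by 0.87 ± 0.20. Against T, 8 were higher and 4 lower in M, beside 15.0% and 10.9% of all genes. Laptm4b differed by 3.89 ± 0.24, Slc11a1 by 1.26 ± 0.23, Mcoln2 by 1.22 ± 0.30 and Lmbrd1 by -1.47 ± 0.27.

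Of the 4 MiT/TFE genes 1 rose and 1 fell in M, against 12.8% and 11.2% of all genes. Tfec was above background on all M arrays and on no Ctrl or T array, at least 34.8-fold higher than in Ctrl and at least 35.2-fold higher than in T. Its probe entered the tests only through the M arrays, so its calls rest on readings not above background in Ctrl and T. Tfeb fell by 0.70 in M (-0.70 ± 0.18, adjusted p 0.0198), from 1.53, 1.42 and 1.81 in Ctrl to 0.73, 1.10 and 0.81, a call lost in 6 of 20 other settings. Mitf levels were 0.29, 0.82 and 1.30 in Ctrl and 1.67, 1.32 and 1.46 in M, and the difference did not pass. Tfe3 passed in no comparison, and in T against Ctrl 0 of the 4 passed by limma, with 1, Tfeb (-0.41 ± 0.18), at an unadjusted p under 0.05. The Tfe3 probes differed in sign in M, with -0.23 ± 0.17 for the brighter and 0.51 ± 0.20 for the other, and neither passed.

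Single markers of other cells differed between the groups. Of all genes, 17.7% rose and 26.5% fell in T, and 12.8% rose and 11.2% fell in M. Summed levels of marker lists are given in multiples of the array's 75th percentile. That of 7 granulocyte markers was 0.349 to 0.782 in Ctrl, 0.730 to 0.925 in T and 2.52 to 2.54 in M. Of the 6 tested, 1 rose in T, S100a8 (3.06), and 3 fell, Elane (-2.56), Ngp (-1.32) and Mpo (-0.84). In M 2 rose, S100a8 (4.97) and S100a9 (1.58), while Camp, Elane, Ngp and Mpo lay below Ctrl and did not pass. The mean log2 level of S100a8 in M was 1.14, and Camp, the next highest of the 6, had -3.88. The M sum thus rests mostly on S100a8. The sum of 5 osteoclast-type markers was 4.94 to 6.94 in Ctrl, 13.1 to 15.2 in T and 37.5 to 48.3 in M. Of those 5, 4 rose and 1 fell in T, and 2 rose in M, namely Ctsk (at least 772-fold, above background on no Ctrl array) and Acp5 (5.14). Ctsk, tested only through its M arrays, was above background on 2 T arrays, and its T rise was at least 1.65-fold. Calcr, which fell in T, was above background on no T array. Against T 3 of the 5 were higher in M, namely Ctsk, Acp5 and Calcr. Calcr (2.86) was above background on 1 M array, and its difference of 0.47 from Ctrl in M did not pass. The 1 lower was Ocstamp (-2.31 ± 0.39), which differed from Ctrl by -0.27 in M and did not pass. Sums of epithelial and carcinoma markers overlapped between groups (1.38 to 2.27, 1.57 to 1.81 and 1.32 to 1.68), while of 5 tested Krt19 rose (3.63) and Epcam and Cldn4 fell (-1.6 and -1.35) in T, and by limma 0 passed in M, where Krt19 and Cldn4 (2 of the 5) had an unadjusted p under 0.05. Of the B cell genes, Cd79a and Cd79b were lower in M than in T (-0.81 ± 0.25 and -1.02 ± 0.30, adjusted p 0.0410 and 0.0332), with differences from Ctrl of 0.25 and 0.13 in T and -0.56 and -0.89 in M that did not pass. The T and NK cell sum was 0.230 to 0.815 in Ctrl, 0.128 to 0.173 in T and 0.212 to 0.255 in M. Of its 4 genes 3 fell in T, Cd3e (-2.62), Cd3g (-1.74) and Ncr1 (-0.63). Cd3e levels in Ctrl were uneven (-0.66, -0.99 and -3.78). In M 1 rose, Cd3d (0.93), which was above background on no Ctrl or M array. The mast cell sum was 0.122 to 0.153 in Ctrl, 0.306 to 0.334 in T and 0.0873 to 0.120 in M, with Cpa3 and Fcer1a above background on no array. Of the 4 mast cell markers 1 was tested, Tpsb2, so that list rests on 1 gene. Tpsb2 rose by 1.54 ± 0.23 in T and fell in M (-0.71 ± 0.23). The mesothelial and stromal sum was 0.130 to 0.207, 0.121 to 0.138 and 0.122 to 0.186, with Upk3b, Wt1 and Dcn above background on no array. The part of these other cell markers in the differences of the 35 genes was not tested.

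Array T1 stood high for the brightest genes of the set. In 7 of the 7 genes with a mean level above 4 (Atp6v0c, Atp6v0d1, Atp6v0e, Atp6v1f, Hexa, Lamp1 and Npc2) it was the highest T array, by a median of 0.48 over the mean of T2 and T3. Among the other 28 genes it was highest in 13, with a median of 0.02. T1 also had the lowest 75th percentile (2147 intensity units, against 3638 on T2 and 3327 on T3). None of these 7 genes passed in T against Ctrl, and the part of T1's intensity in their spread was not tested.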

How the data were processed

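Total RNA labelled with Cy3 was measured on 9 Agilent 1-colour arrays, 3 each in Ctrl, T and M, grouped by sample title. Per the submitters' processing notes, spots were read with Agilent Feature Extraction 10.7.3.1. The deposited scanner files hold processed intensity from which the authors' software had subtracted background, with no scaling between arrays, and they place probes on mm9, per the file headers. The deposited value table of 55821 probes holds log2 values in some columns and linear intensity in others. Its scale was found by setting each column against the scanner files (equal within 0.001 for at least 99.2% of probes in 8 columns). T2 matched no file, so its scale is inferred.

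Control and outlier spots were left out (147 to 299 outliers per array), no spot was saturated, and spots of a probe were averaged, giving 55681 probes. Log2 of the processed signal minus the array's 75th percentile was used. RefSeq accessions of GRCm38.p6 named 26864 probes, 4128 kept the array's name and 24689 had none. Only probes that the scanner marked well above background on each array of 1 group or more were tested, and the brightest stood for its gene, so values of a gene with several probes (9 of the 35) can depend on that choice. One model for all 9 arrays was fitted in R 4.3.3 by the lmFit and eBayes functions of limma 3.58.1, and p-values were adjusted by Benjamini-Hochberg over 17306 genes. The SE is limma's moderated SE, pooled over the 9 arrays. Second probes were taken from the same kind of fit over all tested probes, with p-values adjusted there. "At least" folds set the bright mean against, per dim array, the higher of the probe's signal and the lowest signal well above background. The number of arrays limits the precision, and since no label names separate cultures or animals, p-values reflect nothing beyond the scatter of these samples, possibly technical.

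The 35 genes and the lists were chosen with earlier results of these data known. Every one of the 35 is named, with all array values for the 3 largest called differences of each role and comparison, and of other lists up to 4 called genes whose arrays do not overlap. Replicate numbers were checked as pairs by the correlation of deviations from group means. Same-numbered Ctrl and T arrays gave 0.55, 0.12 and 0.38, Ctrl and M -0.27, -0.20 and 0.01, and M and T -0.28, -0.15 and 0.02. Where M1 and M2 are exchanged, as in the deposited value table, Ctrl and M gave 0.35, 0.05 and 0.01 and M and T 0.32, 0.07 and 0.02, and the block was not run with that exchange. A pairing of Ctrl and T would rest on these values alone, since no label states it. They do not settle it, as T2 correlated more with Ctrl3 (0.19) than with Ctrl2 (0.12). The fit was tested on simulated data before use, and 21 alternatives were run. In the simulated data for T against Ctrl, 92% and 94% of log2 changes of 2 and -2 were recovered. Of changes of 1 and -1, 28% and 34% were recovered, and 6.06% of calls were false. Most genes with a true change of 1 were thus missed there. That fit made 132 calls among 17306 genes, against 7648 in T against Ctrl here, so its cutoff on unadjusted p-values was stricter. Its recovery therefore does not give the share recovered in the real comparisons. A gene that did not pass is still not shown to be unchanged. The summed level of 1 marker list is not reported here.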

Additional observations from a re-analysis of the deposited data

How the results depend on the processing

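No called difference of the 35 genes changed sign in any alternative. Of 21 such calls, 4 were kept throughout (Atp6v0a1 in T and in M, Mcoln1 in T, and Lipa in M against T) and 17 were lost in at least 1 setting. Of 84 differences that did not pass, 28 passed in some setting and 43 changed sign in some setting. Of 62 calls in the other 3 lists, 11 were kept throughout and 0 changed sign.

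Rises among the 35 genes in T numbered 9, and 14, 20 and 16 with quantile normalization, median scaling and array weights, and 2 to 14 with 1 array left out. The shares of all genes that rose were 17.7%, 22.3%, 28.5% and 28.9%, and 12.8% to 23.7% with 1 array left out. The 1 fall became 0 with normexp background correction, median scaling, no filter on dim probes, only the 2 groups compared, the deposited value table or without M1 and M3 together, 2 with array weights, and 0 to 1 with 1 array left out. In M the 7 rises became 3 with only the 2 groups compared, 13 with array weights, 3 with the deposited value table, 1 without M1 and M3 together, and 3 to 12 with 1 array left out. In M against T the 3 higher genes became 1 with median scaling, the value table or without M1 and M3 together, 5 with only the 2 groups or with array weights, and 1 to 5 with 1 array left out. The 1 lower gene became 2 with normexp or only the 2 groups, 3 with array weights, 0 with median scaling, the mean of all probes or the value table, and 0 to 1 with 1 array left out. Of all genes, 12.8% rose in M, and 8.38% with only the 2 groups, 24.6% with array weights and 7.69% with the value table. Against T 15.0% were higher in M, and 19.5%, 29.2% and 4.2% in these settings. With 1 array left out the shares were 7.86% to 22.6% and 8.91% to 20.5%. The pump median minus the hydrolase median was -0.12 in T with array weights, and ranged from 0.0047 to 0.30 in T and from -0.36 to 0.020 in M with 1 array left out.

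Calls among other V-ATPase genes in T (5) became 8 with array weights and 3 with the value table (2 to 6 with 1 array left out). In M (4) they became 1 with only the 2 groups, 7 with array weights, 2 with the value table and 1 without M1 and M3 (1 to 6). In M against T (3) they became 5 with normexp, 1 with median scaling, 7 with only the 2 groups, 8 with array weights, 0 with the value table and 1 without M1 and M3 (1 to 6). Calls among other hydrolases in T (6) became 13 with array weights and 2 with the value table (3 to 11). In M (5) they became 9 with normexp, quantile normalization or median scaling, 2 with only the 2 groups or the value table, 15 with array weights and 1 without M1 and M3 (2 to 14). In M against T (8) they became 5 with median scaling, 16 with array weights, 0 with the value table and 3 without M1 and M3 (4 to 11). Calls among other membrane and transport genes in T (9) became 16 with median scaling and 23 with array weights (7 to 18). In M (10) they became 4 with only the 2 groups, 18 with array weights, 5 with the value table and 2 without M1 and M3 (3 to 15). In M against T (12) they became 19 with array weights, 3 with the value table and 6 without M1 and M3 (9 to 14). Over all 17306 genes, array weights gave 4997 rises and 6462 falls in T, against 3066 and 4582 without them. In M they gave 4261 and 4383, against 2207 and 1933. In M against T they gave 5060 and 3186, against 2598 and 1883. The value table gave 2126 and 3463 in T, 1331 and 700 in M, and 726 and 618 in M against T. In 2 of these lists it gave 0 calls by limma. The cause of these shifts was not tested, apart from the fewer arrays in the fits that leave some out.

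With the replicate number as a block over all 9 arrays, 8 of the 35 genes rose and 0 fell in T (Asah1 and Lipa lost their calls), 7 rose in M, and 2 were higher and 0 lower in M against T. With the block in a fit of T and Ctrl alone, 9 rose and 1 fell and all 10 calls were kept, but no label states that the numbers pair the arrays. That fit and the one without M1 and M3 were chosen after seeing the data. A slide block was not run, because T alone lies on its slide. Probes near background limit what can be said of the dim second probes of Ostm1 and Atp6v0a1.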
